A study of Mus musculus with 4 samples.

Results

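Among the mouse genes named Zfp and a number, 104 were read at a mean of 5 FPKM or more over the 4 oocyte libraries of the series. FPKM is a count of fragments corrected for transcript length and library size, and so a level per length. These 104 genes were taken from 340 symbols of that form among 23235 symbols in all, with Zfp57 (mean 1313 FPKM) and Zfp352 (mean 0.270 FPKM) left out by the rule. The genes were thus chosen by their measured mean FPKM, and their levels are given as a description. The study compared oocytes of Dcaf13fl/fl mice with those of Dcaf13fl/fl;Gdf9-Cre mice, both on a C57B6 background, at the growing and the fully grown stage. All 4 groups carried the floxed Dcaf13 alleles, and only the deletion groups carried Cre, which the Gdf9 promoter drives in oocytes. Growing oocytes came from females of 14 days, for which the labels name no hormone, and fully grown oocytes from females of 23 days that had received 5 IU of PMSG, a gonadotropin, 48 h before. Each group was 1 library of polyadenylated RNA from 10 oocytes. How many animals gave those oocytes is not given in the sources used here.

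Most Zfp genes encode C2H2 zinc finger proteins. In a finger of this kind, a pair of cysteines and a pair of histidines hold a zinc ion, and the helix between them reads a few bases of DNA. Many members of the family also carry a KRAB box, which recruits the corepressor Trim28 and, through it, the H3K9 methyltransferase Setdb1, and these KRAB proteins are known for silencing retroelements and for protecting imprints in germ cells and early embryos. Growing oocytes store the transcripts and proteins that the egg and early embryo use, and transcription stops as the oocyte becomes fully grown. The protein made from Dcaf13 sits in the nucleolus, helps to build ribosomes and recruits substrates to a CRL4 ubiquitin ligase.

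The deposited symbols and values were in different sort orders and were paired again before use, which moved every Zfp symbol by 1 or 2 places. With that pairing Zp3 stood at a mean of 3995 FPKM and the Y-linked Zfy1 at 0, against 10.6 and 3.24 FPKM as deposited. Dcaf13 kept its place and stood at 96.1 FPKM in growing control, 160 in fully grown control, 38.9 in growing deletion and 64.0 in fully grown deletion oocytes. Of 18 oocyte markers 17 were in the table, with medians of 1085 to 1612 FPKM per library. The 10 granulosa and cumulus markers summed to 18.2 to 35.9 FPKM, with only Cyp19a1 at a mean of 5 or more, and the 6 theca and stroma markers to 0.978 FPKM or less. The 6 blood and endothelium markers summed to 11.6 to 18.7 FPKM, most in the fully grown deletion library. Only Pecam1 among them had a mean of 5 or more, and 3 were at 0 in every library. The change of a gene is the difference in log2(FPKM + 1) between 2 libraries, on which changes of low genes look smaller than they are. A gene is called higher or lower where that difference is 1 or more in size, and "rose" and "fell" are used for these calls alone. Where 4 values stand without names, they run control then deletion, growing before fully grown. There were no replicates, so no difference below has an error, and each one compares 2 libraries and not 2 conditions. FPKM is a share of a library: fewer cells of a kind, less RNA per cell and more RNA of other genes cannot be told apart.

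The results below turn on 4 genes above all, 3 that rose or fell in growing deletion oocytes and Zfp707, which fell most over growth in controls. Shown for each is the DNA of 1 finger, 5′ to 3′ on the coding strand, with the codons of its 2 cysteines and 2 histidines in capitals, read from the GENCODE M21 transcripts (GRCm38).
Zfp771: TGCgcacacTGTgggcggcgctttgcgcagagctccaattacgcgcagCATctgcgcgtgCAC
Zfp707: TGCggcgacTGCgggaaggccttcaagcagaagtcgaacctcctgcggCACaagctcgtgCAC
Zfp708: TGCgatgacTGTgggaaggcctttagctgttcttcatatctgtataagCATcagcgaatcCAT
Zfp428: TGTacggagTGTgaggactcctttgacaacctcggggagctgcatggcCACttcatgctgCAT
The Zfp771 stretch is finger 4 of 8 and lies in exon 3 (chr7:127254108-127254170, plus strand). For Zfp707 it is finger 4 of 7, in exon 4 (chr15:75974943-75975005, plus strand). For Zfp708 it is finger 4 of 16, in exon 4 (chr13:67071197-67071259, minus strand). Zfp428 has this 1 finger only, in exon 3 (chr7:24515450-24515512, plus strand). Zfp707 and Zfp708 also encode a KRAB box, while Zfp771 and Zfp428 do not.

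Over the 104 genes the encoded protein held a median of 9 C2H2 fingers, from 0 to 20. A KRAB box was found in 47 of them, with a median of 12 fingers, and not in 56, with a median of 5.5. The search read 1 transcript per gene and asked for 9 of 13 conserved positions, so boxes in other transcripts or with weaker matches may be missed. Zfp956, for example, matched 7 positions and Zfp597 6. A gene without the box is here a gene in which none was found. Zfp939 has no coding transcript in GENCODE. No finger of the pattern searched was found in Zfp259, Zfp330, Zfp750, Zfp839 and Zfp957. In the whole family, 48 of 177 KRAB genes (27.1%) and 56 of 158 genes without the box (35.4%) reached a mean of 5 FPKM, against 7380 of all 23235 genes (31.8%). A further 116 Zfp genes had means from 1 to 5 FPKM, 119 were below 1 FPKM, and 5 of those were listed at 0 in every library. The genes nearest the threshold were Zfp512, Zfp81 and Zfp560 below it, at 4.91, 4.98 and 4.99 FPKM, and Zfp97, Zfp652 and Zfp960 above it, at 5.00, 5.02 and 5.05.

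Most of the 104 genes were read at modest levels. Their median mean was 11.3 FPKM, against 21.9 for all genes at a mean of 5 or more. A mean of 20 FPKM or more was reached by 33 genes, of 50 by 10 and of 100 by 2. In all 4 libraries 79 genes stood at 5 FPKM or more, so the others reached the mean with at least 1 library below it, as can any gene read by its mean. Zfp296, known from pluripotent cells and germ cells, was the most abundant, at 221 and 166 FPKM in growing control and deletion oocytes, and 201 and 201 in fully grown ones. Its growing deletion value was the lowest of the 4. Zfp277, a partner of Polycomb proteins at the Cdkn2a locus, stood at 101, 63.5, 141 and 129 FPKM in the same order. Both fully grown libraries lay above both growing ones. Zfp655 stood at 99.1, 78.9, 112 and 81.2 FPKM. Zfp207, the spindle and kinetochore protein BuGZ, stood at 95.4, 86.2, 111 and 73.8 FPKM. Both genes were highest in the fully grown control library, and Zfp207 was lowest in the fully grown deletion library. Zfp58, a KRAB gene, stood at 73.6, 53.7, 77.9 and 46.8 FPKM. Both deletion libraries lay below both controls. The next 5 by mean were Zfp511, Zfp957, Zfp706, Zfp108 and Zfp828, with means from 50.4 to 53.7 FPKM. Zfp828 is the chromosome alignment protein Champ1, Zfp706 is a small protein that acts on Klf4 in embryonic stem cells, and Zfp108 carries a KRAB box.

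**Figure D1:**
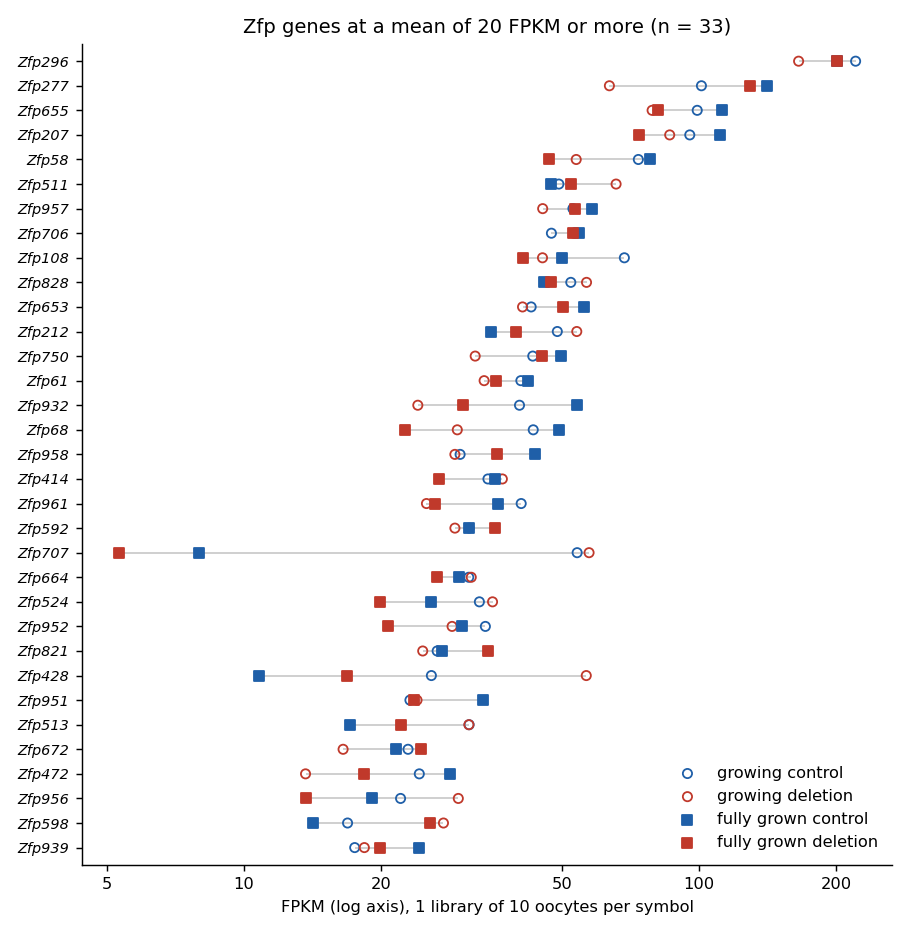
FPKM on a log axis for the 33 Zfp genes at a mean of 20 FPKM or more, ordered by mean. Each symbol is 1 library of 10 oocytes (open circles growing, filled squares fully grown, blue control, red deletion) and the grey line spans the 4 values; Zfp707 and Zfp428 have the widest spans.

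In growing oocytes, 2 of the 104 genes rose with the deletion and 1 fell. Over all 7380 genes at a mean of 5 FPKM or more, 1.57% rose and 2.21% fell, so both counts lie near the background. The median change was -0.03 for the Zfp genes and 0.06 for all genes, with 50 of 104 (48.1%) and 56.9% of genes above 0. Zfp771 (chr7:134388039-134398315 in mm9, as deposited) stood at 16.6 FPKM in growing control and 37.4 in growing deletion oocytes. At the fully grown stage it stood at 4.48 in control and 2.90 in deletion oocytes. The growing deletion library was thus the highest of the 4, and the rise over its control was 1.13 on the log2 scale. Zfp428 (chr7:25292105-25300701 in mm9) stood at 25.8 and 56.5 FPKM in growing control and deletion oocytes, and 10.8 and 16.8 in fully grown ones. It rose by 1.10 in growing oocytes and stood 0.59 above control in fully grown ones. With the trend with GC content and length over all genes taken out, these rises were 0.65 and 0.70, below the size rule. Zfp708, a KRAB gene known to bind the retroelement RMER19B (chr13:67170333-67198912 in mm9), stood at 9.74, 3.20, 13.1 and 6.75 FPKM in that order. It fell by 1.36 in growing oocytes, and its change in fully grown ones was -0.87. Of its transcript, 97.4% of 31-base words also occur in another gene, so its reads may be shared with other genes. Which genes these are was not looked at.

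In fully grown oocytes none of the 104 genes rose with the deletion and Zfp68 alone fell, where 0.732% of all genes rose and 0.827% fell. The median change was -0.20, against 0.04 for all genes, and 32 of 104 genes (30.8%) lay above 0, against 55.0% of all genes. Zfp68, a KRAB gene (chr5:139044879-139060971 in mm9), stood at 43.2 and 29.4 FPKM in growing control and deletion oocytes, and 49.3 and 22.6 in fully grown ones. Both deletion libraries lay below both controls. Its change was -1.09 in fully grown and -0.54 in growing oocytes, and without the GC and length trend the first was -0.92. No Zfp gene passed the rule at both stages.

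**Figure D2:**
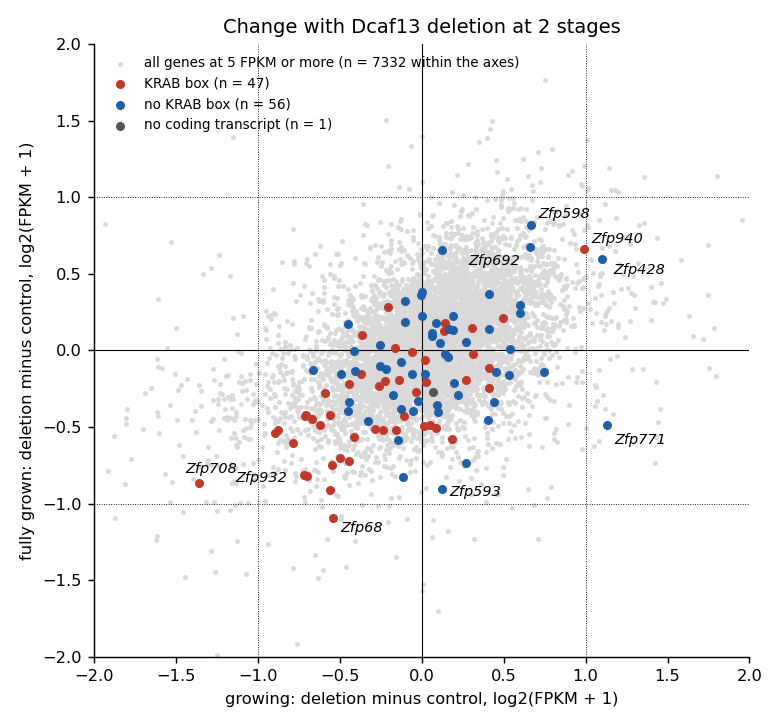
Change with the deletion in growing oocytes (x axis) and fully grown oocytes (y axis), as differences in log2(FPKM + 1); dotted lines mark the size rule of 1. Coloured points are Zfp genes with a KRAB box (red, 47), without one (blue, 56) and without a coding transcript (dark grey, 1), and pale grey points are all genes at 5 FPKM or more, of which 7332 lie within the axes and 48 beyond. The lower left field holds 29 of the 47 KRAB genes.

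The comparisons at the 2 stages share no library. KRAB genes and the other Zfp genes were read apart in both, a split chosen after seeing the data. Of the 47 KRAB genes, 15 (31.9%) lay above 0 in growing and 8 (17%) in fully grown oocytes, with medians of -0.24 and -0.42. Among the 56 genes without the box, 34 (60.7%) and 24 (42.9%) lay above 0, with medians of 0.09 and -0.09. Of the KRAB genes 29 (61.7%) stood below control at both stages and 5 above at both. Without the box 17 genes (30.4%) stood below at both and 19 above at both. Over all genes 27% stood below at both and 39.1% above at both. Summed over the 47 KRAB genes, the level was 863 and 715 FPKM in growing control and deletion oocytes, and 831 and 615 in fully grown ones. Over the other 56 genes it was 1451, 1430.0, 1432 and 1333 FPKM. The deletion libraries thus held the lowest sums in both classes, but in the 56 genes the growing deletion sum lay barely below the fully grown control. A sum follows the most abundant genes. The median level of the 56 genes was higher in deletion oocytes, at 13.7 and 14.5 FPKM in growing control and deletion and 10.5 and 11.3 in fully grown ones. That of the 47 KRAB genes was 10.99 and 10.8 in growing and 11.6 and 7.85 in fully grown ones. Across the 104 genes the changes at the 2 stages had a Pearson r of 0.55 and a Spearman rho of 0.51, against 0.34 and 0.44 across all genes. For the KRAB genes alone they were 0.69 and 0.64. For the 56 genes without the box they were 0.27 and 0.24, below those of all genes. These describe genes within 4 libraries, and genes are not independent replicates. Zfp932, a KRAB gene known to repress endogenous retroviruses, stood at 40.3 and 24.1 FPKM in growing control and deletion oocytes, and 53.9 and 30.3 in fully grown ones. Both deletion libraries lay below both controls, with changes of -0.72 and -0.81, short of the size rule. Zfp940 was the KRAB gene farthest in the other direction, at 5.53, 11.96, 3.97 and 6.88 FPKM. It stood 0.99 and 0.66 above its controls, also short of the rule. Without the GC and length trend the difference in growing oocytes was 1.09, past the rule, and it was the only such rise there among the 104. Zfp940 was named after its values were seen.

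**Figure D3:**
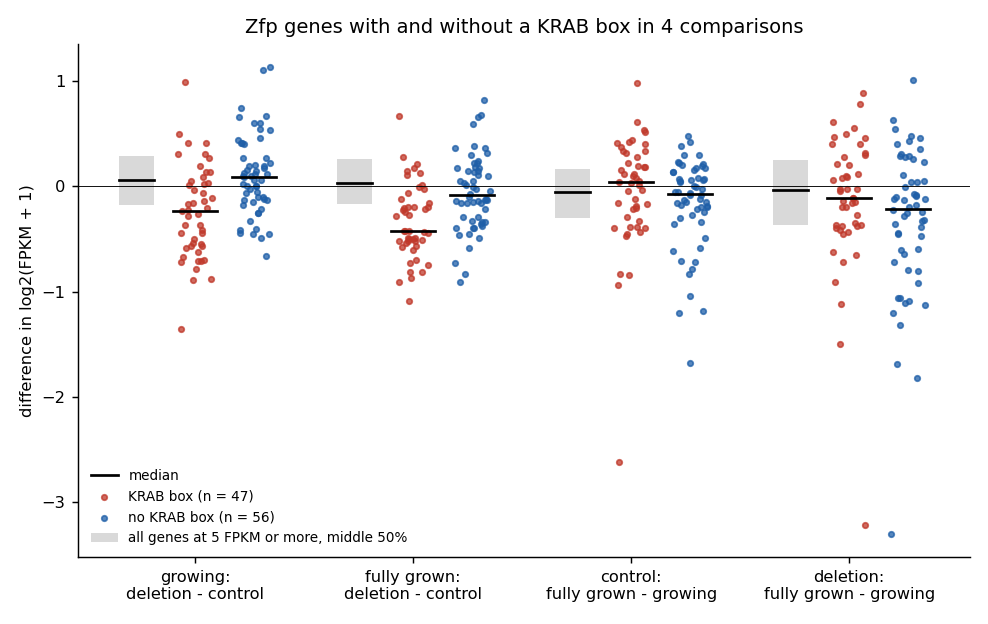
Differences in log2(FPKM + 1) in the 4 comparisons for Zfp genes with a KRAB box (red, 47) and without (blue, 56); each point is 1 gene, black bars are medians and grey boxes span the middle 50% of all genes at 5 FPKM or more. In both deletion comparisons the KRAB median, -0.24 and -0.42, lies below the grey box.

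KRAB genes also had transcripts poorer in G and C, and the change with the deletion moved with GC content. The median transcript GC content was 41.15% for KRAB genes, 51.22% for the other Zfp genes and 49.8% for all genes. Across the 104 Zfp genes, GC content and change had a Spearman rho of 0.53 in growing and 0.44 in fully grown oocytes. Across all 7310 genes with a value the rho was 0.36 and 0.41. The relation was therefore not limited to Zfp genes. Read within bands of GC content, KRAB genes under 42% GC had medians of -0.37 and -0.50 (26 genes), and the 6 other Zfp genes of that band -0.38 and -0.18. From 42% to 52% GC the medians were -0.22 and -0.35 for 16 KRAB genes, and 0.00 and -0.10 for 26 others. At 52% or more they were 0.14 and 0.15 for 5 KRAB genes, and 0.23 and 0.03 for 24 others. The 5 KRAB genes richest in G and C thus had medians above 0. With the GC and length trend, fitted over all genes, taken out, the KRAB medians were -0.12 and -0.28, and those of the other Zfp genes 0.06 and -0.12. All genes then stood at 0.06 and 0.04. The part of GC content in the difference between the classes was not tested further.

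**Figure D4:**
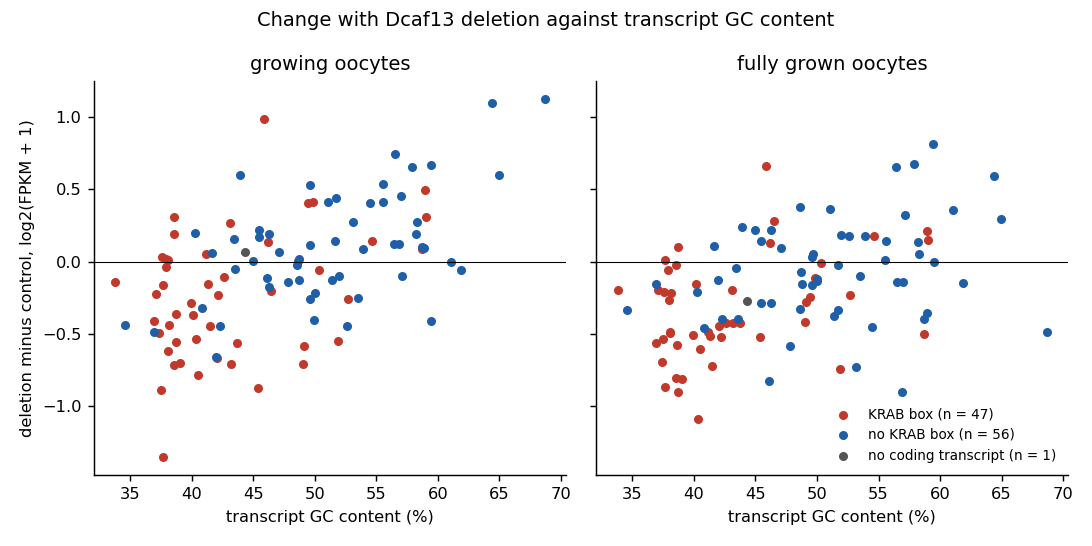
Change with the deletion in log2(FPKM + 1) against transcript GC content in percent for the Zfp genes, in growing oocytes (left) and fully grown oocytes (right). Points are genes with a KRAB box (red, 47), without one (blue, 56) or with no coding transcript (dark grey, 1); values climb from left to right, with a Spearman rho of 0.53 and 0.44.

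Reads that match several genes could be shared out among them, and how the counting treated them is not given in the sources used here. A word counted as shared where any other named gene held it, whether of the family or not, overlapping genes included. Of the 104 genes, 18 shared 20% or more of their 31-base words with another gene. Among these were Zfp960 at 91.2%, Zfp97 at 89.8%, Zfp932 at 73.5% and Zfp58 at 50.7%, whose values are therefore uncertain. The 36 KRAB genes below that limit had medians of -0.22 in growing and -0.35 in fully grown oocytes, close to those of all 47.

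Zfp genes with known roles were read in 3 lists. The list of RNA and ribosome proteins had 12 genes, of which 7 were among the 104 (Zfp638 was not found in the table, and Zfp622, Zfp346, Zfp36 and Zfp326 had means under 5 FPKM). None of the 7 rose or fell with the deletion, and at the shares of all genes given above few calls would fall among 7. Their median changes were 0.06 and -0.29, against 0.06 and 0.04 for all genes. Zfp598, the ubiquitin ligase that detects collided ribosomes, stood at 16.9 and 27.4 FPKM in growing control and deletion oocytes, and 14.1 and 25.7 in fully grown ones. Both deletion libraries lay above both controls, by 0.67 and 0.82, short of the rule. Without the GC and length trend the differences were smaller, at 0.41 and 0.52. Zfp593, a factor of late large ribosomal subunit assembly, stood at 10.96, 12.02, 12.98 and 6.47 FPKM. Only the fully grown deletion library stood apart, with a change of -0.90, which was -1.10 and past the rule without the GC and length trend. Zfp473, which binds the U7 particle that processes histone transcripts, stood at 24.4, 20.3, 10.0 and 10.3 FPKM, with both growing libraries above both fully grown ones. The other 4 were the nucleolar protein Zfp330, the RNA-binding protein Zfp106, the splicing-associated Zfp830 and Zfp207, with changes from -0.58 to 0.22 with the deletion.

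The list of imprint and retroelement repressors had 7 genes, and only Zfp708 and Zfp932, described above, were among the 104. Zfp445 and Zfp568, which act on imprinted genes, had means of 3.49 and 4.10 FPKM. The retrovirus repressor Zfp809 had a mean of 1.81 FPKM, Zfp42 (Rex1) of 2.26 and Zfp819 of 0.820. The changes of these low genes with the deletion differed in sign. In growing and fully grown oocytes they were 0.29 and 0.25 for Zfp445, and 1.29 and 0.14 for Zfp809. For Zfp42 they were 0.48 and -0.39, for Zfp568 -0.22 and -0.32, and for Zfp819 -0.25 and -0.53. The list of regulators outside the KRAB class had 19 genes, of which 8 were read, and none rose or fell with the deletion. Few calls would fall among 8 genes at the shares of all genes given above. Their median changes were 0.09 and 0.03, against 0.06 and 0.04 for all genes. Zfp143, an activator that binds promoters, stood at 11.2, 10.2, 10.2 and 9.61 FPKM, nearly level. Zfp451, a SUMO ligase, stood at 13.7, 15.5, 14.4 and 16.01 FPKM, also nearly level. Zfp410, an activator of Chd4, stood at 7.95, 11.95, 7.80 and 6.86 FPKM and was highest in growing deletion oocytes. Zfp259, Zfp91 and Zfp318 had changes from 0.00 to 0.41 with the deletion, and Zfp217 and Zfp238 are described with growth below.

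The partners through which KRAB proteins silence chromatin were read from a list of 27 genes. Of these, 26 were in the table and 23 had a mean of 5 FPKM or more. None of the 23 rose or fell with the deletion at either stage. Over all genes 1.57% rose and 2.21% fell in growing oocytes, and 0.732% rose and 0.827% fell in fully grown ones. At these shares few calls would fall among 23 genes. The medians were 0.18 in growing and 0.06 in fully grown oocytes, against 0.06 and 0.04 for all genes. Above 0 lay 16 (69.6%) and 15 (65.2%) of them, against 56.9% and 55.0% of all genes. Trim28, the corepressor that binds the KRAB box, stood at 67.0 and 104 FPKM in growing control and deletion oocytes, and 44.0 and 68.5 in fully grown ones. It stood 0.63 above control at both stages, while the medians of the KRAB genes were below 0. Setdb1 stood at 41.6, 50.4, 37.5 and 53.2 FPKM, with both deletion libraries above both controls. Mta1, of the NuRD complex, came nearest to the rule, at 12.6, 19.7, 8.58 and 17.3 FPKM, a difference of 0.60 in growing and 0.93 in fully grown oocytes. Over growth, Cbx3, an HP1 protein, fell by 1.33 in deletion oocytes, where 6.27% of all genes fell. No other of the 23 genes passed the rule over growth in either genotype. Mta2, left out for its mean of 1.24 FPKM, had a change of -1.30 over growth in deletion oocytes.

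Over growth in controls, 5 of the 104 genes fell and none rose, where 2.44% of all genes fell and 0.854% rose. In deletion oocytes 13 fell and 1 rose, where 6.27% of all genes fell and 2.52% rose. The mean that chose the genes spans both stages, so a gene low at 1 stage was read only where the other was high. That holds for all genes too. Of those that fell in deletion oocytes, Zfp771, Zfp217, Zfp597, Zfp238, Zfp319 and Zfp687 lay below 5 FPKM in the fully grown deletion library. They reached the mean mainly through the growing libraries. The median changes were -0.03 in controls and -0.14 in deletion oocytes, against -0.05 and -0.04 for all genes. These 2 comparisons share no library with each other, but each shares its libraries with the deletion comparisons above. Rescaling by the median ratio moved the median of all genes from -0.05 to 0.08 and from -0.04 to 0.10. That of the Zfp genes moved to 0.10 and 0.01, so the sign of a median this close to 0 depends on the scaling. The rescaled values gave 89 genes that rose and 123 that fell in controls, of all genes, against 63 and 180 as deposited. In deletion oocytes they gave 253 and 345, against 186 and 463. Of the Zfp genes 1 then rose and 4 fell in controls, and 2 rose and 7 fell in deletion oocytes. Zfp707, Zfp771, Zfp428 and Zfp217 fell in both genotypes. Zfp707, a KRAB gene (chr15:75799614-75806295 in mm9), stood at 54.0 and 57.3 FPKM in growing control and deletion oocytes, and 7.95 and 5.31 in fully grown ones. Both growing libraries lay far above both fully grown ones. It fell by 2.62 in controls and fell by 3.21 in deletion oocytes. Zfp771 changed by -1.68 and -3.30, and Zfp428 by -1.18 and -1.69, from the levels given above. With the GC and length trend removed the changes of Zfp771 and Zfp428 in controls were -0.98 and -0.76, short of the rule. Zfp217, which binds CoREST and CtBP corepressors (chr2:169934142-169968175 in mm9), stood at 9.21, 12.8, 3.95 and 2.92 FPKM. It fell by 1.04 in controls and fell by 1.82 in deletion oocytes, and the change in controls was -0.93 after rescaling and -0.99 without the GC and length trend.

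The remaining call in controls was Zfp473, which fell by 1.20, with a change of -0.91 in deletion oocytes. In deletion oocytes, Zfp334, Zfp319 and Zfp639 fell, with changes of -1.498, -1.32 and -1.20. Zfp334, a KRAB gene, stood at 12.5 and 16.95 FPKM in growing control and deletion oocytes, and 6.53 and 5.36 in fully grown ones. Both growing libraries lay above both fully grown ones. Zfp319 stood at 7.04, 10.7, 3.66 and 3.70 FPKM, in the same arrangement. Zfp639 stood at 20.5, 18.8, 14.3 and 7.59 FPKM and was lowest in the fully grown deletion library. The other 6 were Zfp597, Zfp777, Zfp687, Zfp3, Zfp956 and Zfp238 (Zbtb18, a transcriptional repressor), with changes from -1.13 to -1.06. All 6 were short of the rule after rescaling, and Zfp777, Zfp687, Zfp3 and Zfp956 also without the GC and length trend. Zfp277 was the only Zfp gene that rose over growth, by 1.01 in deletion oocytes, and its change in controls was 0.48. Without the GC and length trend the rise was 0.92, short of the rule. Zfp277 shares 20.5% of its 31-base words with another gene. Zfp69, a KRAB gene named after its values were seen, came close to the rule in controls, at 0.98, and passed it without the GC and length trend, at 1.05. Genes without a KRAB box, 56 of the 104, made up 4 of the 5 falls in controls and 10 of the 13 in deletion oocytes. Without the GC and length trend they made up 1 of 2 falls in controls and 7 of 9 in deletion oocytes. Transcript GC content and change over growth had a Spearman rho of -0.46 and -0.40 across the 104 genes, and -0.33 and -0.23 across all genes.

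**Figure D5:**
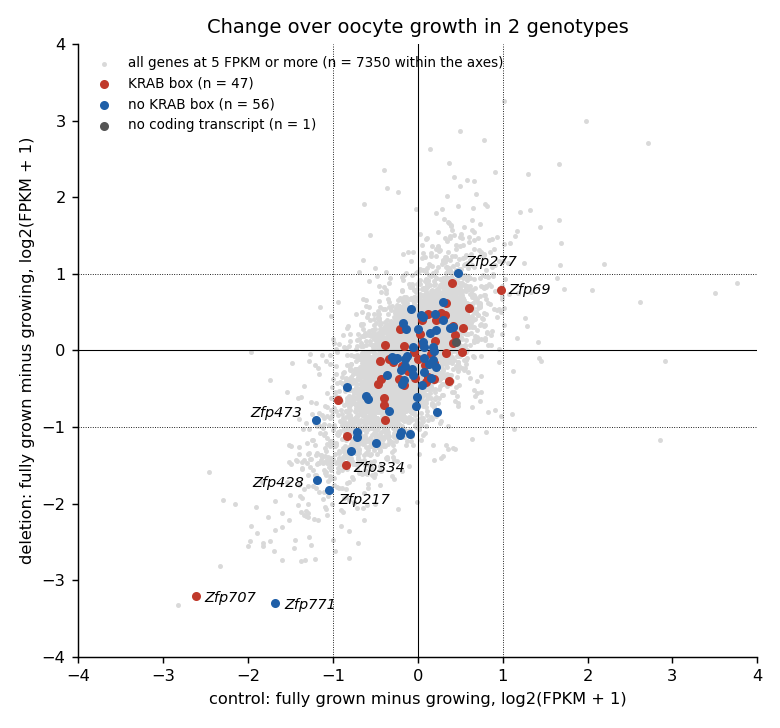
Change from growing to fully grown oocytes in controls (x axis) and deletion oocytes (y axis), as differences in log2(FPKM + 1); dotted lines mark the size rule of 1. Coloured points are Zfp genes as in the plot of the deletion changes, and pale grey points are all genes at 5 FPKM or more, of which 7350 lie within the axes and 30 beyond. Zfp707 and Zfp771 lie at the lower left, at -2.62 and -3.21 and at -1.68 and -3.30.

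Some of these genes lie near one another in the genome. Chromosome 7 held 26 of the 104 (25%), against 7.2% of all genes at a mean of 5 FPKM or more, and chromosome 17 held 14 (13.5%), against 5.1%. Within 200 kb of another of the 104 lay 32 genes, in 13 groups. Genes between them were not looked at, and no such share was computed over all genes. The 6 largest groups had 3 genes each. On chromosome 17 (21870690 to 22131333 in mm9) the KRAB genes Zfp229, Zfp942 and Zfp943 stood below control in growing oocytes, with a median of -0.36, and 2 of them in fully grown ones, with a median of -0.20. On chromosome 7 (25012813 to 25084568) the KRAB genes Zfp109, Zfp108 and Zfp61 stood below control at both stages, with medians of -0.59 and -0.28. The chromosome 6 group (47870566 to 47998113) of Zfp212, Zfp956 and Zfp777 went the other way in growing oocytes, with a median of 0.41, and all 3 stood lower after growth in both genotypes. Zfp553, Zfp771 and Zfp688 on chromosome 7 (134376956 to 134565548) also stood lower after growth in both, with medians over growth of -0.58 in controls and -0.64 in deletion oocytes. The other 2 groups of 3, both on chromosome 7, were Zfp524, Zfp865 and Zfp580, and Zfp940, Zfp420 and Zfp383. Neighbours can share sequence and GC content, so they are not separate observations.

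Promoters were read for the 87 of 104 genes with an entry in the RefSeq table (GRCm38.p6). The first 2 below belong to the genes that rose in growing deletion oocytes and fell over growth, the last to the KRAB gene that fell in growing deletion oocytes. Each is the 250 bases before the start of the gene, 5′ to 3′ on its strand, with matches to the motifs searched, on both strands, in capitals.
Zfp771: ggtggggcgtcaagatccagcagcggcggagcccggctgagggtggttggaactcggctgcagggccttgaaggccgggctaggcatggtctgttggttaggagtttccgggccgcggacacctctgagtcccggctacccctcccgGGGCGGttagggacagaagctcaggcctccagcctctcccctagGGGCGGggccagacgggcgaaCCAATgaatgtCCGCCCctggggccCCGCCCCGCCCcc
Zfp428: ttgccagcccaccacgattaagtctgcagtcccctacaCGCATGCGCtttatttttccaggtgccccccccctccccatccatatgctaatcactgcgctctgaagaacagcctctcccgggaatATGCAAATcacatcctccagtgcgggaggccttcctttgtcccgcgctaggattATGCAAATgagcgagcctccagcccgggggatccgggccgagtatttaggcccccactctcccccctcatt
Zfp708: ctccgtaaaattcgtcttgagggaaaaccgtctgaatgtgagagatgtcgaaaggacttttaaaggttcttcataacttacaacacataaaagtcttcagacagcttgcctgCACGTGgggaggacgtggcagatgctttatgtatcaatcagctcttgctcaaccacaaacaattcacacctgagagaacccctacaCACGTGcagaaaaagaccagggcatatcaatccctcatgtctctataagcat
The Zfp771 stretch (chr7:127244276-127244525, plus strand) is 70.4% G and C and holds 5 GC boxes (GGGCGG or CCGCCC, 1 pair overlapping) and 1 CCAAT box. That of Zfp428 (chr7:24506837-24507086, plus strand) is 58.0% G and C and holds 2 octamer motifs (ATGCAAAT), a motif that was added after this sequence was seen, and 1 NRF1 motif (GCGCNTGCG). That of Zfp708 (chr13:67097977-67098226, minus strand), the first of 2 entries, is 44.0% G and C and holds 2 E-boxes (CACGTG). The searches also covered TATAAA, CCGGAAGT, ACTACAATT and AAGATGGC, none of which is in these 3. In the whole window of the table, 250 bases before to 50 after the start, a GC box was found in 46.0% of the Zfp genes, 64.8% of 5987 genes at 5 FPKM or more and 35.9% of all 27025 entries. Among KRAB genes the share was 31%, and among the other Zfp genes 59.1%. The median GC content of the window was 53.8% for KRAB genes, 60.3% for the other Zfp genes and 60.7% for all genes at 5 FPKM or more. The CCAAT box was found in 48.3% of the Zfp genes, 40.9% of genes at 5 FPKM or more and 37.9% of all entries. For the octamer motif the shares were 5.7%, 1.2% and 1.8%. The first is 5 of 87 genes and counts Zfp428, whose sequence prompted the search, so it is not an independent result. For the E-box the shares were 10.3%, 10.9% and 7.2%. For the NRF1 motif they were 13.8%, 16.8% and 6.6%, and for ACTACAATT, part of the motif bound by Zfp143, 3.4%, 0.9% and 0.4%. A match is a run of letters and not a shown binding site.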

How the data were processed

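Polyadenylated RNA of 10 oocytes per library was turned into cDNA with the Smart-seq2 protocol, and libraries were made with Tn5 transposase, per the labels' protocols. The values deposited by the authors are FPKM per gene symbol, with 1 library per group. Cufflinks 2.2.1 and TopHat2 2.0.11 appear in the submitters' processing notes, together with Bowtie2 2.1.0, CASAVA 1.8 and the build mm9, without roles. Of gene models, strand and reads with several matches nothing is stated there. FPKM does not hold the depth. Among low genes (under 0.3 FPKM) the most common ratio to the growing control library gave relative depths of 1.04 for growing deletion, 1.01 for fully grown control and 1.11 for fully grown deletion. No interval could be given.

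Symbols sorted in byte order were paired with the values in file order, an inference from the values that was not checked with the submitters. Over 75 Zfp symbols under 0.3 FPKM, the smallest value above 0 and transcript length had a Spearman rho of -0.21 with this pairing and -0.07 as deposited (all genes -0.47 and -0.23). With the values shifted by up to 6 rows either way, the rho ran from -0.16 to 0.20 for Zfp symbols. So few genes cannot tell the right row from a near one. Over all genes the shifted values ran from -0.19 to -0.11. As deposited, the same rule also finds 104 genes, 32 of them (30.8%) shared with the 104 here.

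Changes were differences in log2(FPKM + 1), a pseudocount of 1, read for genes at a mean of 5 FPKM or more over the 4 libraries and called at a difference of 1 or more. No test was run, since each group held 1 library. Genes named with values were the 10 highest means, the calls of each comparison (the 8 largest per direction), the genes called in both comparisons of a kind, the role lists, the 3 genes on each side of the threshold and the largest groups of neighbours within 200 kb; others were named after their values were seen. The genes, lists and rule were chosen with earlier results of these data known. Fingers (C, 2 to 4 residues, C, 12, H, 3 to 5, H) and KRAB boxes (at least 9 of 13 conserved positions), transcript GC content and words of 31 bases came from GENCODE M21, where 99 of the 104 genes matched by symbol and 5 by a RefSeq synonym. Python 3.11.15 was used, with pandas 2.3.3, NumPy 2.4.6, SciPy 1.17.1 and matplotlib 3.10.9. Alternatives were another pseudocount, rescaling by median ratios, other minimum levels, the deposited pairing, removal of the GC and length trend, and, chosen after seeing the data, the KRAB split and genes with little shared sequence.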

Additional observations from a re-analysis of the deposited data

Results flagged for a closer look

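The change of Zfp771 with the deletion had opposite signs at the 2 stages. It was 1.13 in growing oocytes and -0.49 in fully grown oocytes on the log2(FPKM + 1) scale, with 1 library per group at each stage. Without the GC and length trend the changes were 0.65 and -0.97, still opposite in sign and both short of the size rule. The fully grown levels, 4.48 FPKM in control and 2.90 in deletion oocytes, lay below the mean level by which genes were chosen. Zfp771 thus reached that mean through its growing libraries. The difference between the stages was not tested.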

How the results depend on the processing

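No paired analysis was possible because each group held 1 library, and for the same reason no library could be left out. Counts are given in the order growing deletion, fully grown deletion, growth in controls, growth in deletion oocytes. With a pseudocount of 0.1, 2 Zfp genes fell in each of the first 2 comparisons, where 1 did in the report, and 1 and 2 rose over growth. Rescaling by median ratios gave 1 and 2 that rose over growth and 7 in place of 13 that fell in deletion oocytes. It moved the growth medians to 0.10 in controls and, with a change of sign, from -0.14 to 0.0072 in deletion oocytes. Without the GC and length trend 1 gene rose in growing deletion oocytes, Zfp940, in place of Zfp771 and Zfp428. In fully grown deletion oocytes 1 fell, Zfp593, in place of Zfp68. Over growth in controls 1 rose, Zfp69, and 2 fell, Zfp707 and Zfp473, and 0 rose in deletion oocytes. At a mean of 20 FPKM or more (33 genes), 1 rose and 0 fell in growing deletion oocytes, 2 fell over growth in controls and 3 in deletion oocytes, where the median was -0.022. KRAB genes alone gave 0 that rose in growing deletion oocytes and 1 and 3 that fell over growth, with 0 that rose in deletion oocytes and deletion medians of -0.24 and -0.42. Genes without the box gave 0 that fell in either deletion comparison, with medians of 0.089 and -0.087. Among genes that share under 20% of their 31-base words, 0 fell in growing deletion oocytes and 0 rose over growth in deletion oocytes. The smaller numbers under the last 4 choices rest in part on fewer genes read; otherwise the cause was not tested. Of the other 78 values under an alternative for these counts and medians, none moved past the limits set (1.5 times a count, or 0.1 in a median). Those under the deposited pairing could hardly differ. It moves each Zfp symbol by only 1 or 2 places, so most of the same values stay in the set under other names. They therefore cannot show whether the results hold under another pairing. A KRAB split from RefSeq proteins was planned but not run, since no protein table was given. The split used here came from GENCODE translations and was chosen after seeing the data.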
